A study of Mus musculus with 4 samples.

Results

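Tox and Tox2 are 2 of the 27998 genes in the count tables of T cells sorted from mouse pancreatic islets, and were chosen by name. They were read in conventional Cd4, Foxp3-positive and Cd8 cells, and beside Pdcd1, Tcf7, Il21 and Foxp3. Both genes encode nuclear proteins with a high mobility group box, a domain that binds DNA. Tox is needed for the CD4 lineage in the thymus and is a driver of the exhausted state that CD8 T cells enter under lasting antigen, in which it keeps PD-1 and other inhibitory receptors expressed. Tox2 takes part in the programme of follicular helper T cells, the CD4 cells that express Pdcd1, Cxcr5, Bcl6 and Il21 and help B cells, and has also been placed beside Tox in exhausted CD8 cells. Tox is ENSMUSG00000041272, at chr4:6686353-6991557 on the minus strand of mm10, and Tox2 is ENSMUSG00000074607, at chr2:163203125-163324170 on the plus strand. The antisense gene Gm11802 overlaps Tox and had 1 and 0 UMIs in the 16-week and 8-week libraries.

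The cells came from females of the NOD strain, which is prone to autoimmune diabetes, taken at 16 and at 8 weeks of age while still pre-diabetic. Live TCRβ-positive islet cells were sorted and run on a droplet 5′ kit, with 1 RNA and 1 T cell receptor library for each age. The number of mice behind each library is not given in the labels. With 1 library per age, a difference between ages compares 2 libraries and has no replicate check. All intervals printed are 95% intervals and cover counting error only.

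After filtering, 1931 cells of the 16-week library and 1875 of the 8-week library were kept, with a median of 2928 and 2975 UMIs per cell. A beta chain of the T cell receptor was read in 1641 and 1581 of them. Clusters led by acinar or B cell genes (58 and 48 cells) were left out. The conventional class, Cd4-gated cells outside the regulatory T-like clusters and with no Foxp3 UMI, held 566 and 579 cells. The Foxp3-positive class held 89 and 115 cells, the cells of the regulatory T-like clusters with no Foxp3 UMI numbered 65 and 61, and the Cd8-gated class held 314 and 294. Foxp3 UMIs were also read in 5.10% and 5.10% of Cd8-gated cells, at 20.4 and 20.3 CPM and with up to 4 and 7 UMIs in a cell, and whether those cells express the gene was not tested. The libraries shared 5 cell barcodes.

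Tox was measured at similar levels in all 3 named classes, while Tox2 was lower in Cd8-gated cells than in conventional cells in both libraries. Levels are the summed UMIs of a class divided by all UMIs of that class and scaled to CPM. Among conventional cells Tox stood at 78.6 CPM (67.4 to 91.1) in the 16-week library and 107 CPM (95.2 to 120) in the 8-week library, from 176 and 287 UMIs. Among Cd8-gated cells it stood at 82.4 CPM (67.6 to 99.4) and 111 CPM (94.0 to 130), from 109 and 153 UMIs. Among Foxp3-positive cells it stood at 101 CPM (78.3 to 128) and 104 CPM (83.4 to 127), from 68 and 91 UMIs. These 3 intervals overlapped within each library. The highest Tox levels were in the cells of the regulatory T-like clusters without a Foxp3 UMI, at 161 CPM (123 to 207) and 157 CPM (117 to 206).

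Tox2 stood at 58.5 CPM (48.9 to 69.5) and 73.2 CPM (63.3 to 84.2) in conventional cells of the 16-week and 8-week libraries, from 131 and 196 UMIs. In Cd8-gated cells it stood at 28.7 CPM (20.3 to 39.4) and 42.8 CPM (32.5 to 55.1), from 38 and 59 UMIs. In Foxp3-positive cells it stood at 41.5 CPM (27.6 to 60.0) and 35.3 CPM (24.0 to 50.1), from 28 and 31 UMIs. The Cd8-gated intervals lay below the conventional ones in both libraries, and the Foxp3-positive interval did so in the 8-week library only. The cells of the regulatory T-like clusters without a Foxp3 UMI stood at 58.2 CPM (36.5 to 88.2) and 72.5 CPM (46.5 to 108), close to the conventional level. Of the related genes, Tox3 had 0 and 2 UMIs in the whole libraries. Tox4, a family member expressed in most tissues, stood at 71.9 and 60.2 CPM in conventional cells and 62.7 and 60.9 CPM in Cd8-gated cells.

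**Figure D1:**
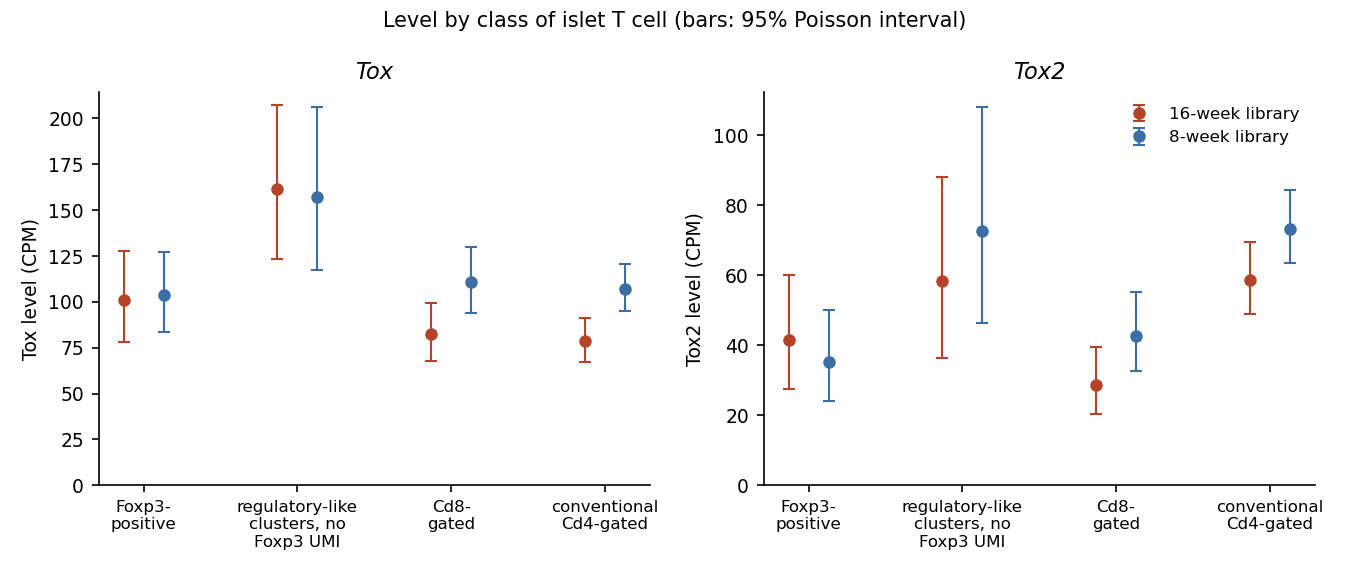
Level of Tox (left) and Tox2 (right), in CPM, by class of islet T cell; points are the 16-week and the 8-week library and bars the 95% Poisson interval of the summed UMIs. Tox2 in Cd8-gated cells, at 28.7 and 42.8 CPM, sits below conventional cells, at 58.5 and 73.2 CPM, whereas Tox stands at 82.4 and 111 CPM against 78.6 and 107 CPM.

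Set against conventional cells, Cd8-gated cells had a Tox2 log2 ratio of -1.01 (-1.59 to -0.50) in the 16-week library and -0.77 (-1.22 to -0.35) in the 8-week library. The Tox ratios were 0.07 (-0.29 to 0.42) and 0.05 (-0.24 to 0.34), the first of which was -0.31 with every cell given equal weight. Past 1.5-fold lower, the size counted throughout, stood 9.35% and 9.67% of all genes tested in this comparison, Tox2 among them and Tox not. Foxp3-positive cells had Tox2 ratios against conventional cells of -0.47 (-1.14 to 0.10) and -1.03 (-1.65 to -0.50), where 7.8% and 7.96% of genes were past 1.5-fold lower, and Tox ratios of 0.37 (-0.07 to 0.77) and -0.04. With that weighting, the Tox ratio of Foxp3-positive cells in the 8-week library was 0.41. The regulatory T-like cells without a Foxp3 UMI had Tox ratios of 1.05 (0.59 to 1.47) and 0.56 (0.10 to 0.98), where 17% and 16.9% of genes were past 1.5-fold higher, and Tox2 ratios of 0.02 and 0.01.

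As a share of the UMIs of both genes together, Tox2 gave 25.9% (19.0 to 33.7) and 27.8% (21.9 to 34.4) in Cd8-gated cells of the 16-week and 8-week libraries. It gave 29.2% (20.3 to 39.3) and 25.4% (17.96 to 34.1) in Foxp3-positive cells, and 42.7% (37.1 to 48.4) and 40.6% (36.2 to 45.1) in conventional cells. Cd8-gated cells differed from conventional cells by -16.8 points (-25.3 to -7.47) in the 16-week library and by -12.7 points (-19.9 to -5.06) in the 8-week library. Foxp3-positive cells differed from conventional cells by -13.5 points (-23.4 to -2.35) and -15.2 points (-23.4 to -5.74). The balance between the genes thus differed between classes beyond counting error in each library.

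Detection per cell was sparse, and most cells with the genes had 1 UMI. Tox was read in 19.1% and 27.2% of Cd8-gated cells, in 47.2% and 47.8% of Foxp3-positive cells and in 22.3% and 28.2% of conventional cells in the 16-week and 8-week libraries. Foxp3-positive cells were deeper, with medians of 6003 and 5778 UMIs against 2991 and 3151 in conventional cells. After each cell was thinned to 1700 UMIs, the Tox shares were 10% and 13.8% of Cd8-gated cells, 17.2% and 21.5% of Foxp3-positive cells and 11.4% and 14.8% of conventional cells. The thinned Tox2 shares were 3.67% and 5.30%, 9.20% and 6.54%, and 5.33% and 9.01% of the same 3 classes. In the left-out acinar-like and B-like cells, which had medians of 2957.5 and 2761.5 UMIs, Tox was read in 11 of 58 and 8 of 48 cells, or 75.3 and 66.6 CPM, and after thinning in 3 of 55 (5.45%) and 7 of 42 (16.7%). Tox2 was read in 2 of 58 and 3 of 48. The thinned Tox shares of conventional and Cd8-gated cells lay inside the wide intervals of the left-out cells (1.14% to 15.1% and 6.97% to 31.4%). The left-out cells are not a background free of T cell RNA: they were sorted as TCRβ-positive and held Tcf7 at 160 and 164 CPM. Tcf7 in all T cells stood at 194 and 172 CPM. It is the spread of Tox between clusters of T cells, given next, that exceeded counting error within a library.

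Both genes were concentrated in a few clusters. For the clusters described next, Tox, Tox2, Pdcd1, Tcf7, Il21 and Foxp3 were removed from the clustering genes, so that none of the 6 placed a cell. The classes above instead used an earlier clustering from which these genes were not removed. Foxp3 was also among the markers that named its regulatory T-like clusters. The larger of these, with 386 cells, was led by Neb, Areg and Il10, genes that lead an unnamed cluster described below. In the follicular helper T-like cluster (218 and 303 cells in the 16-week and 8-week libraries), led by 1700019D03Rik, Gpm6b and Cxcr5, Tox2 stood at 168 CPM (142 to 197) and 125 CPM (108 to 145). This cluster held 11.3% and 16.2% of the cells but 46.2% and 41.9% of all Tox2 UMIs. Tox there stood at 192 CPM (165 to 224) and 164 CPM (143 to 186), which was 24.9% and 26.3% of all Tox UMIs.

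The CD8 T-like cluster led by Klrc1, Ccl5 and Ctla2a (84 and 113 cells) had Tox at 197 and 150 CPM, near the follicular helper T-like level. Its Tox2 level was 58.0 and 63.9 CPM, lower than in the follicular helper T-like cluster. Tox2 was 22.8% and 29.9% of the UMIs of both genes in the CD8 T-like cluster, and 46.5% (41.0 to 52.2) and 43.4% (38.5 to 48.3) in the follicular helper T-like one. An unnamed cluster led by Areg, Neb and Il10 (187 and 188 cells), in which Foxp3 stood at 203 and 200.5 CPM, had Tox at 144 and 159 CPM and Tox2 at 49.6 and 54.5 CPM. The regulatory T-like cluster led by Ppp1r3fos, Gpr83 and Ecm1 had Tox at 69.6 and 123 CPM and only 4 and 2 Tox2 UMIs. Between these clusters, both rich in Foxp3, the Tox2 intervals were apart in the 8-week library and overlapped in the 16-week library. An unnamed cluster led by the division genes Fam64a, Ccna2 and Troap had Tox at 89.0 and 109 CPM and Tox2 at 57.0 and 60.8 CPM.

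At the low end, the larger naive or stem-like T-like cluster (355 and 347 cells), led by Pdlim4, had Tox at 31.0 and 40.4 CPM and 1 Tox2 UMI in each library. The unnamed cluster led by Itgb1 had Tox at 39.9 and 58.3 CPM. The interferon-responding cluster had Tox at 27.1 and 26.4 CPM and 2 and 0 Tox2 UMIs. The follicular helper T-like, CD8 T-like and Areg-led clusters were next to each other at the top of the Tox order with overlapping intervals in both libraries, while in the Tox2 order the follicular helper T-like cluster stood alone above the others in both libraries.

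**Figure D2:**
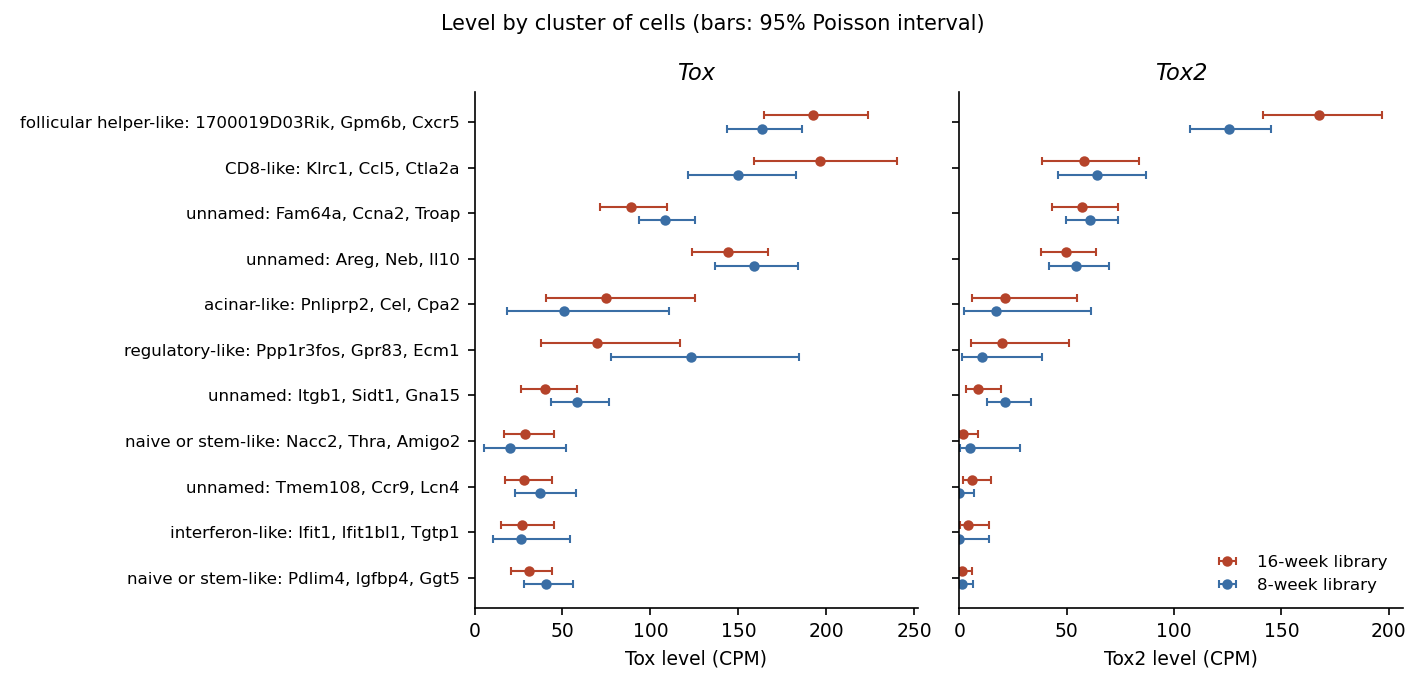
Level of Tox (left) and Tox2 (right), in CPM, in the clusters of cells made without these genes; points are the 16-week and the 8-week library, bars the 95% Poisson interval, and each cluster is given by its leading genes. Tox2 is highest in the follicular helper T-like cluster, at 168 and 125 CPM, while Tox stands there at 192 and 164 CPM beside 197 and 150 CPM in the CD8 T-like cluster.

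Between ages, Tox was lower in the 16-week library in conventional cells, with a log2 ratio of 16 over 8 weeks of -0.45 (-0.73 to -0.17), and in Cd8-gated cells, with -0.43 (-0.80 to -0.07). The Tox2 ratios were -0.32 (-0.65 to 0.00) in conventional cells and -0.57 (-1.20 to 0.04) in Cd8-gated cells. In Foxp3-positive cells the ratios were -0.04 (-0.51 to 0.43) for Tox and 0.24 (-0.56 to 1.02) for Tox2. None of these 6 ratios was past 1.5-fold. In conventional cells 6.5% of all genes tested were past it lower and 5.19% higher, in Cd8-gated cells 7.92% and 4.96%, and in Foxp3-positive cells 8.21% and 8.14%. The median ratio of all genes was -0.05 in conventional cells.

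Pdcd1, which encodes PD-1, differed in the same direction and by more. It stood at 86.9 CPM in the 16-week and 179 CPM in the 8-week library in Cd8-gated cells, and at 132 and 192 CPM in conventional cells. Cells with a Pdcd1 UMI were 46 of 314 and 85 of 294 Cd8-gated cells, and 110 of 566 and 187 of 579 conventional cells. Among conventional cells with a Pdcd1 UMI the Tox level was 127 CPM in the 16-week library against 149.96 CPM in the 8-week library, a log2 ratio of -0.24 (-0.62 to 0.12). Tox2 among the same cells was 123 against 116 CPM, 0.09 (-0.31 to 0.47). Among Cd8-gated cells with a Pdcd1 UMI, Tox was 148 against 192 CPM and Tox2 66.9 against 85.1 CPM, with ratios of -0.37 and -0.33 whose intervals included 0. Within cells split by Pdcd1, no age ratio of either gene was beyond counting error. The split left fewer UMIs, which widens the intervals. Pdcd1-positive Cd8-gated cells held 53 and 122 Tox UMIs, against 109 and 153 in all Cd8-gated cells. The part of Pdcd1 in the age ratios was not tested. The summed CPM of the proliferation list also differed between libraries, at 1533 and 2435 in Cd8-gated cells, and its part in the age ratios was not tested.

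Cells with a Pdcd1 UMI had more Tox and more Tox2 per UMI than cells without one, in both the Cd8-gated and the conventional class. In Cd8-gated cells Tox stood at 148 CPM with and 58.1 CPM without a Pdcd1 UMI in the 16-week library, a log2 ratio of 1.35 (0.78 to 1.91). In the 8-week library it stood at 192 with and 41.6 CPM without, 2.19 (1.63 to 2.83). Past 1.5-fold higher were 23.5% and 21.8% of all genes in this comparison. For Tox2 the Cd8-gated levels were 66.9 with and 14.5 CPM without in the 16-week library, 2.18 (1.19 to 3.27), and 85.1 with and 6.71 CPM without in the 8-week library, 3.54 (2.35 to 5.35).

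In conventional cells Tox stood at 127 CPM with and 55.9 CPM without a Pdcd1 UMI in the 16-week library, 1.18 (0.74 to 1.62), and at 149.96 with and 64.4 CPM without in the 8-week library, 1.22 (0.85 to 1.60). Tox2 stood at 123 with and 28.3 CPM without, 2.11 (1.57 to 2.68), and at 116 with and 30.7 CPM without, 1.90 (1.41 to 2.45). Past 1.5-fold higher were 21% and 16% of all genes. Cells with a Pdcd1 UMI were deeper, with medians of 4559.5 against 2845 UMIs in conventional cells of the 16-week library and 4953 against 2726 in the 8-week library. After thinning to 1700 UMIs, Tox2 was read in 22.8% with and 3.29% without a Pdcd1 UMI in the 16-week library, and in 21.9% with and 5.49% without in the 8-week library. The thinned Tox shares in the same cells were 29.8% with and 9.24% without, and 23.7% with and 12.4% without. Foxp3-positive cells differed: Tox there had Pdcd1 ratios of 0.03 and 0.78 (0.11 to 1.52), and the Tox2 ratios of 0.65 and 0.43 had intervals that included 0.

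Tcf7 encodes TCF-1, a factor of naive, follicular helper and stem-like exhausted T cells. In conventional cells Tox2 was higher with a Tcf7 UMI than without, at 77.0 with and 29.0 CPM without in the 16-week library, 1.39 (0.77 to 2.10), and 91.3 with and 43.5 CPM without in the 8-week library, 1.06 (0.58 to 1.59). Of all genes, 5.92% and 7.02% were past 1.5-fold higher. Tox in the same cells was 79.2 with and 77.7 CPM without, and 116 with and 92.0 CPM without, with ratios of 0.02 and 0.34 (-0.02 to 0.71). In Cd8-gated cells the direction of Tox2 with Tcf7 was not resolved, at 21.8 with and 35.3 CPM without in the 16-week library and 44.4 with and 41.2 CPM without in the 8-week library. Tox in Cd8-gated cells had ratios of -0.53 (-1.13 to 0.04) and -0.01, where 8.81% and 6.61% of genes were past 1.5-fold lower. After thinning in 1 random draw, the difference in Tox2-detected conventional cells was 1.12 points (-2.70 to 5.94) in the 16-week library. In the 8-week library it was 7.51 points (2.12 to 13.9), so it was not resolved in the 16-week library in that draw. Expected over all draws of 1700 UMIs, a setting chosen after seeing the data, the differences were 4.40 and 4.20 points. The contrast between the libraries was thus that of 1 draw.

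The Pdcd1-positive cells were then split by Tcf7. Among Pdcd1-positive conventional cells of the 16-week library, the 68 with a Tcf7 UMI had Tox2 at 149.7 CPM and the 42 without had 59.9 CPM, 1.28 (0.46 to 2.30). In the 8-week library the 125 with and 62 without stood at 125 and 89.1 CPM, 0.48 (-0.08 to 1.10). Tox in these cells was 126 with and 129 CPM without Tcf7, and 141 with and 175 CPM without, with ratios of -0.05 and -0.33 whose intervals included 0. The share of Tox2 in the UMIs of both genes was 54.3% with and 31.7% without Tcf7 in the 16-week library, a difference of 22.6 points (5.25 to 37.2), and 47.1% with and 33.7% without in the 8-week library, 13.4 points (1.82 to 24.0). The Tox2 share was thus larger in Tcf7-positive than in Tcf7-negative cells of both libraries, though its own interval with Tcf7 was 45.7% to 62.8% and 40.9% to 53.4%.

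Among Pdcd1-positive Cd8-gated cells (23 with and 23 without a Tcf7 UMI in the 16-week library, 38 and 47 in the 8-week library), Tox2 was 59.9 with and 74.1 CPM without, and 82.5 with and 87.5 CPM without. The Tox2 share of the pair differed by 12.8 points (-8.12 to 33.8) and 1.75 points (-11.6 to 15.4). Tox was lower with Tcf7 in the 16-week library, at 92.6 with and 205 CPM without, -1.13 (-2.07 to -0.28), or -2.13 without the dividing cluster, and stood at 178 with and 205 CPM without in the 8-week library, -0.20. In Pdcd1-positive Foxp3-positive cells Tox2 was 56.0 with and 37.8 CPM without Tcf7, and 62.04 with and 18.4 CPM without, with ratios of 0.48 and 1.66 (0.24 to 3.56). Whether the conventional and Cd8-gated differences with Tcf7 differ from each other was not tested.

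**Figure D3:**
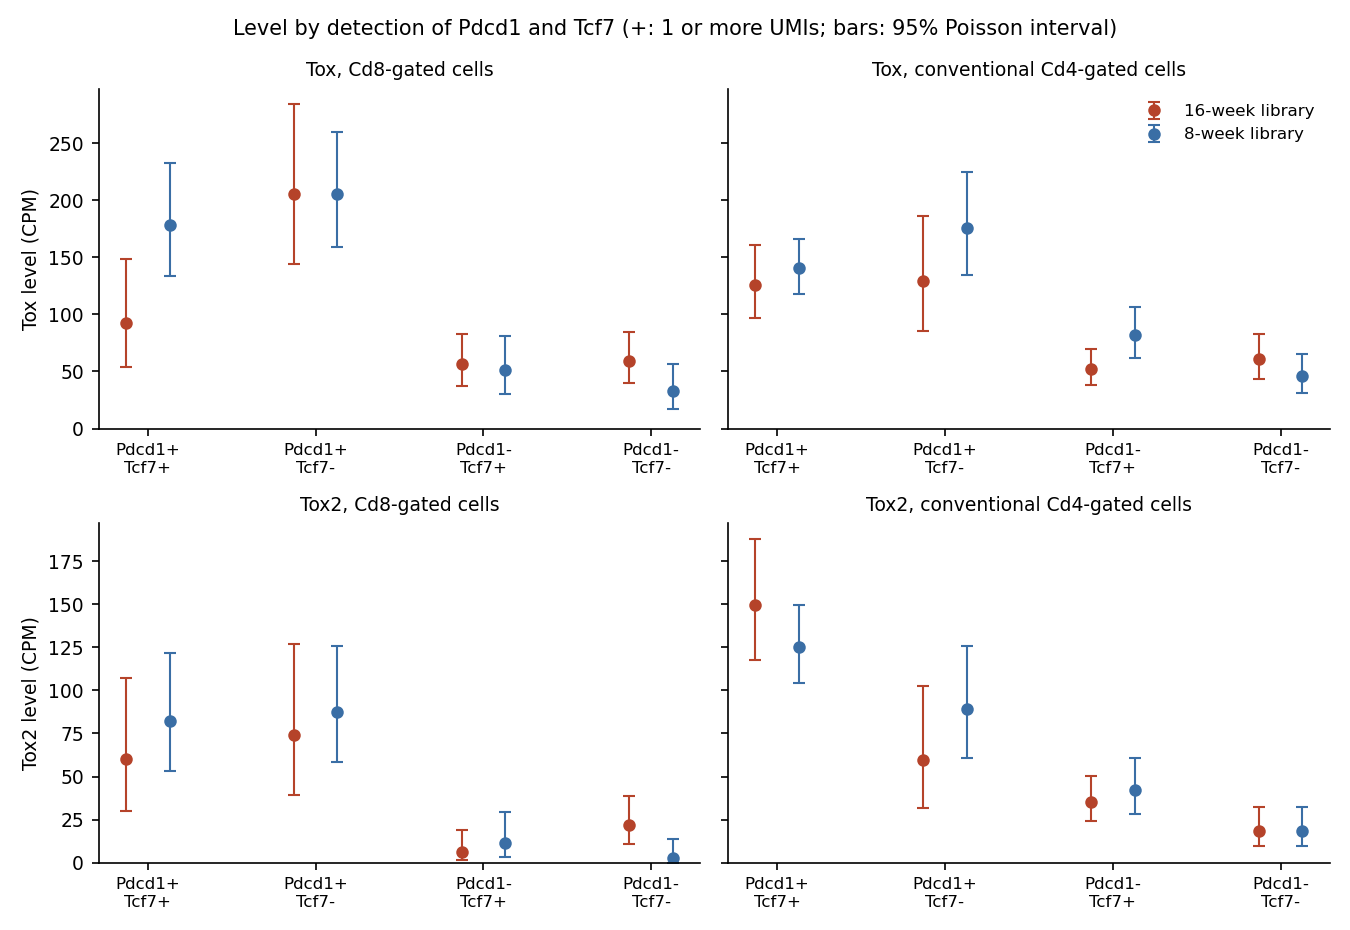
Level of Tox (top) and Tox2 (bottom), in CPM, in Cd8-gated (left) and conventional Cd4-gated cells (right) split by whether a UMI of Pdcd1 and of Tcf7 was read; points are the 16-week and the 8-week library and bars the 95% Poisson interval. Among Pdcd1-positive conventional cells Tox2 is 149.7 CPM with and 59.9 CPM without Tcf7 at 16 weeks and 125 with and 89.1 CPM without at 8 weeks. These Tox2 intervals are apart at 16 weeks and overlap at 8 weeks. Among Pdcd1-positive Cd8-gated cells the Tox2 intervals with and without Tcf7 overlap in both libraries.

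Il21, the cytokine of follicular helper cells, was read in 60 and 71 conventional cells of the 16-week and 8-week libraries, or 10.6% and 12.3%. In Cd8-gated cells it was read in 4 of 314 (1.27%) and 3 of 294 (1.02%), with 1 UMI in each of these cells. The cells of the regulatory T-like clusters with no Foxp3 UMI, the class with the highest Tox, had it in 24.6% and 31.1%. Its level there was 101 and 87.6 CPM, against 52.3 and 48.2 CPM in conventional cells. Conventional cells with an Il21 UMI had Tox at 151 with and 63.0 CPM without in the 16-week library, 1.26 (0.78 to 1.72), and at 165 with and 91.0 CPM without in the 8-week library, 0.86 (0.49 to 1.22). Tox2 was 116 with and 46.2 CPM without, 1.33 (0.77 to 1.86), and 112 with and 62.3 CPM without, 0.85 (0.40 to 1.29). Past 1.5-fold higher were 20.9% and 13.6% of all genes. Conventional cells with an Il21 UMI thus held more of both genes per UMI. Of Tox2-detected conventional cells, 35.8% and 34.8% had an Il21 UMI, against 7.21% and 6.68% of Tox2-undetected ones. Thinned to 1700 UMIs, the shares were 20.7% and 5.05% in the 16-week library, 15.6 points (4.57 to 33.4), and 10.4% and 5.77% in the 8-week library, 4.64 points (-1.73 to 16.5), so the 8-week difference was not resolved. Of Tox-detected ones, unthinned, 27.8% and 27.6% did, against 5.68% and 6.25% of Tox-undetected ones, and the thinned differences were 13.4 points (5.53 to 24.8) and 15.02 points (7.56 to 25.1). Read the other way, the Tox2 share of conventional cells with minus without an Il21 UMI was 14.3 and 6.55 points in this draw of 1700 UMIs. Expected over all draws, a setting chosen after seeing the data, it was 10.9 and 14.3 points. Foxp3-positive cells with an Il21 UMI were only 7 and 8, with Tox2 at 94.1 with and 35.01 CPM without and at 70.1 with and 29.3 CPM without, and both intervals included 0.

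A broader follicular gate, any UMI of Cxcr5 (the receptor that guides cells to B cell follicles), Bcl6 (the factor that sets the follicular helper programme), Il21 or Sostdc1, was also applied to conventional cells. Without a Pdcd1 UMI, 44 cells with and 412 without the gate in the 16-week library had Tox2 at 147 and 11.3 CPM, 3.68 (2.75 to 4.71). In the 8-week library 36 cells with and 356 without had 71.2 and 23.7 CPM, 1.61 (0.54 to 2.57). With a Pdcd1 UMI the Tox2 levels were 151 with and 80.3 CPM without the gate, 0.89 (0.20 to 1.66), and 130.3 with and 93.6 CPM without, 0.47 (-0.02 to 0.99). Follicular genes therefore marked higher Tox2 also among cells in which PD-1 transcript was not read. For Tox, the ratios were 1.47 and 1.02 without Pdcd1 and 0.71 and 0.67 with it.

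Lag3, an inhibitory receptor of activated and exhausted T cells, went with both genes in Cd8-gated and in conventional cells. In Cd8-gated cells Tox2 stood at 85.1 with and 5.34 CPM without a Lag3 UMI in the 16-week library, 3.88 (2.63 to 5.71), and at 83.7 with and 8.04 CPM without in the 8-week library, 3.28 (2.16 to 4.89). Tox stood at 181 with and 41.7 CPM without, 2.11 (1.53 to 2.72), and at 170 with and 60.3 CPM without, 1.49 (0.99 to 2.03). Once Pdcd1-positive Cd8-gated cells were split by Lag3, Tox2 was still higher with it, at 88.0 with and 18.4 CPM without, 1.97 (0.24 to 5.39), and 102 with and 36.6 CPM without, 1.38 (0.25 to 2.99). Over all conventional cells Tox2 stood at 101 with and 43.6 CPM without Lag3, 1.21 (0.69 to 1.73), and at 93.8 with and 57.2 CPM without, 0.71 (0.29 to 1.14). Tox there stood at 140.01 with and 56.9 CPM without, 1.30 (0.85 to 1.74), and at 152 with and 72.5 CPM without, 1.06 (0.71 to 1.42). In Pdcd1-negative conventional cells of the 16-week library Tox2 was 97.9 with and 16.2 CPM without Lag3, 2.59 (1.66 to 3.53), and in those of the 8-week library 35.7 with and 29.2 CPM without, 0.33 (-0.85 to 1.33). In Pdcd1-positive conventional cells the same split gave Tox2 at 102 with and 143 CPM without Lag3, -0.47 (-1.13 to 0.16), and 114 with and 118 CPM without, -0.05. Tox in those conventional cells was 133 with and 120 CPM without in the 16-week library, 0.14, and 171 with and 111 CPM without in the 8-week library, 0.61 (0.16 to 1.10). Among Pdcd1-positive Foxp3-positive cells of the 16-week library, Tox2 was lower with Lag3, at 26.2 with and 85.0 CPM without, -1.64 (-3.38 to -0.20). These levels rested on 6 and 13 UMIs. In the 8-week library Tox2 was 45.9 with and 25.0 CPM without, 0.75 (-0.74 to 2.91), from 17 and 4 UMIs. The lower level with Lag3 was thus not repeated there.

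The wider profile of the cells was then read from lists of follicular helper, exhaustion, stem-like and naive, and proliferation genes. Conventional cells with a Tox2 UMI (67 and 115 in the 16-week and 8-week libraries) were set against those without one (499 and 464), with median depths of 4602 against 2887 UMIs and 5840 against 2831 UMIs. Of 13 follicular helper genes with at least 30 UMIs in the class in each library, 10 were past 1.5-fold higher and 0 lower in the 16-week library, and 8 higher and 1 lower in the 8-week library, where 18.9% and 9.65% of all genes were higher. The list medians were 0.94 and 0.82 log2, against 0.13 and 0.03 over all genes. Of 12 exhaustion genes, 10 were higher and 1 lower, and 5 higher and 2 lower, with medians of 1.04 and 0.43. Whether the 2 libraries differ in these counts was not tested.

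Cxcr5 stood at 64.0 CPM in Tox2-detected and 13.6 CPM in undetected conventional cells of the 16-week library, and at 79.6 and 22.5 CPM in the 8-week library. Sh2d1a, which encodes the adaptor SAP that T cells need to help B cells, stood at 510 and 163 CPM, and at 467 and 244 CPM. Il21 stood at 83.2 and 44.1 CPM, and at 93.6 and 26.9 CPM. Maf, a factor that drives Il21, had log2 ratios of 0.85 and 0.86, and the costimulatory receptor Icos had 1.22 and 0.63. Of the inhibitory receptors, Pdcd1 stood at 313 and 83.6 CPM and at 337 and 123 CPM, and Tigit had ratios of 1.71 and 1.82. Lag3 stood at 179 and 113 CPM and at 222 and 173 CPM, with ratios of 0.67 and 0.36. Id2, which favours the effector over the follicular fate, was lower, at 53.3 and 89.3 CPM and at 28.1 and 85.1 CPM.

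The list of stem-like and naive markers went the other way: 12 of its 16 genes were past 1.5-fold lower in Tox2-detected conventional cells and 4 higher in the 16-week library, and 11 lower and 3 higher in the 8-week library, where 11.6% and 10.8% of all genes were lower. The medians were -1.79 and -1.70. Cxcr5 is also in this list. The homing receptor Ccr7 (ratios -2.24 and -2.01), the factor Klf2 that keeps S1pr1 on (-1.83 and -1.63), and Lef1, a partner of TCF-1 (-1.79 and -2.08), were lower. Id3, an inhibitor of E protein factors, was higher at 1.05 and 0.91, while Tcf7 itself was 0.59 and 0.30. Tcf7 was thus not among the lower genes of its list.

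Conventional cells with a Tox UMI (126 and 163) gave similar lists against those without one (440 and 416). Follicular helper genes were higher for 11 and lower for 1 of 13 in the 16-week library, and higher for 7 and lower for 0 in the 8-week library, where 13.7% and 8.17% of all genes were higher; the medians were 1.04 and 0.60. Exhaustion genes were higher for 11 of 12 and for 6 of 12, with medians of 1.72 and 0.59. Lag3 stood at 264 CPM in Tox-detected and 67.8 CPM in undetected cells of the 16-week library, and at 261 and 141 CPM in the 8-week library. Tnfrsf9, the costimulatory receptor 4-1BB of recently stimulated cells, stood at 50.3 and 25.6 CPM, and at 60.4 and 18.1 CPM. Stem-like and naive genes were lower for 9 and 10 of 16, where 7.13% and 7.79% of all genes were, with medians of -0.94 and -1.08.

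In Cd8-gated cells with a Tox2 UMI (28 and 38, against 286 and 256 without), 11 of 14 exhaustion genes were past 1.5-fold higher in the 16-week and 9 of 14 in the 8-week library, where 26% and 17.4% of all genes were higher. The list medians were 1.38 and 1.26, against 0.22 and 0.12 over all genes. With cells thinned to 1700 UMIs before the split, when 4 of the genes could be read, the medians were 1.04 and 0.32, against 0.32 and 0.20 over all genes. Eomes, a factor of memory and exhausted CD8 cells, stood at 289 CPM in Tox2-detected and 48.9 CPM in undetected cells, and at 146 and 44.4 CPM. Lag3 stood at 302 and 78.7 CPM and at 303 and 117 CPM, and the ectoenzyme gene Cd38 at 82.5 and 19.0 CPM and at 64.1 and 14.5 CPM. Tcf7 was lower in the 16-week library, with a ratio of -1.19 (-2.04 to -0.52), and had -0.29 (-0.82 to 0.19) in the 8-week library. Tox-detected Cd8-gated cells (60 and 80) had 10 and 9 of 14 exhaustion genes higher, where 20.7% and 14.9% of all genes were, with medians of 1.41 and 1.41, or 0.85 and 0.36 after that thinning, against 0.14 and 0.09 over all genes. Tnfrsf9 stood there at 137 in Tox-detected and 33.1 CPM in undetected cells, and at 136 and 37.8 CPM.

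Follicular helper genes that passed the 30 UMI limit in Cd8-gated cells were only 7. With Tox2, 6 and 4 were past 1.5-fold higher and 1 and 2 lower, with medians of 1.15 and 0.88. With Tox, 5 and 5 were higher and 1 and 1 lower, with medians of 0.97 and 1.01. Of all genes, 26% and 17.4% were higher with Tox2, and 20.7% and 14.9% with Tox. The medians in conventional cells were 0.94 and 0.82 with Tox2 and 1.04 and 0.60 with Tox. Stem-like and naive genes were past 1.5-fold lower for 11 and 10 of 14 with Tox2, where 13.2% and 11.7% of all genes were, and for 11 and 9 of 14 with Tox, where 11.6% and 8.7% were. In Foxp3-positive cells (19 and 20 with Tox2, 70 and 95 without) the follicular helper and exhaustion medians for Tox2 lay near those of all genes, 0.03 and 0.04, while 6 and 6 of 11 proliferation genes were higher, with medians of 0.74 and 0.60. There 0 of 9 follicular helper genes were higher and 1 lower in the 16-week library and 3 higher in the 8-week library, where 10.5% and 9.15% of all genes were higher and 9.15% and 7.19% lower, with medians of -0.15 and 0.01. Of 11 exhaustion genes, 3 were higher and 1 lower, and 1 was higher, with medians of -0.04 and 0.06. With Tox (42 and 55 cells with, 47 and 60 without), 3 exhaustion genes were higher in the 16-week library and 1 higher and 2 lower in the 8-week library, where 8.65% and 6.03% of all genes were higher and 6.36% and 6.39% lower. The Tox exhaustion medians there were 0.54, with 10 of 11 genes above 0, and 0.19, against 0.01 and 0.0009 over all genes.

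**Figure D4:**
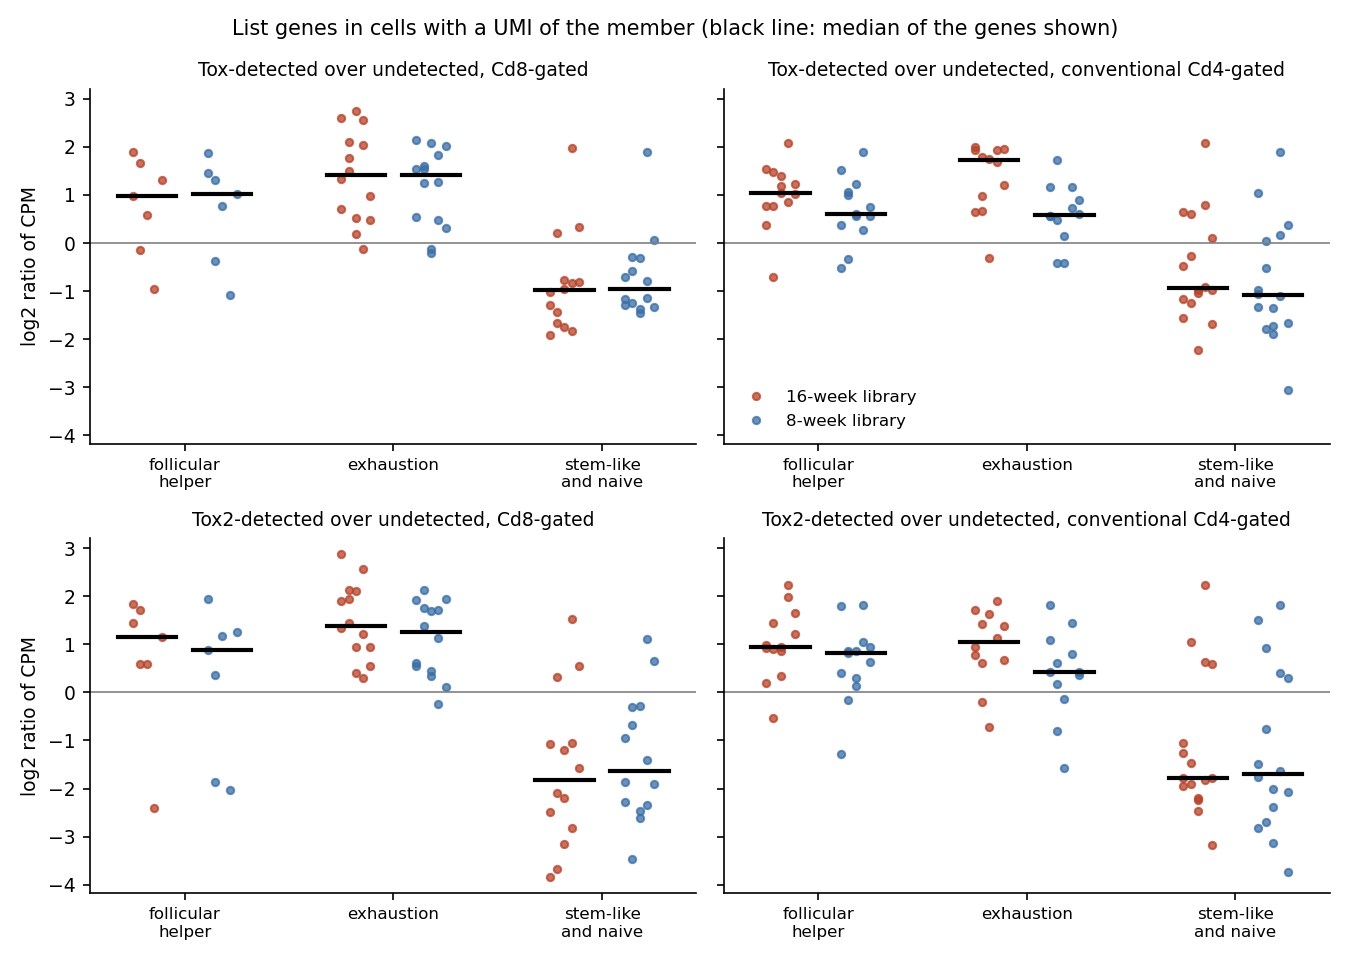
Log2 ratio of CPM in cells with over cells without a UMI of Tox (top) or Tox2 (bottom), in Cd8-gated (left) and conventional Cd4-gated cells (right); each point is a gene of a list in the 16-week or the 8-week library and the black line is the median of the points. The exhaustion median with Tox2 is 1.38 and 1.26 in Cd8-gated and 1.04 and 0.43 in conventional cells. The follicular helper median with Tox2 is 1.15 and 0.88 in Cd8-gated and 0.94 and 0.82 in conventional cells. The stem-like and naive medians lie below 0 in every panel.

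Proliferation genes were higher in conventional and Cd8-gated cells with either member, but not in every setting. In Tox2-detected conventional cells 11 of 12 were past 1.5-fold higher in the 16-week and 12 of 12 in the 8-week library, with medians of 1.70 and 1.90, and in Tox-detected ones 10 and 10 of 12, with medians of 1.10 and 1.28. With cells thinned to 1700 UMIs before the split, 6 of the genes could be read, and the medians were -0.43 and 0.22 for Tox2 and -0.08 and 0.65 for Tox. In Cd8-gated cells 11 of 11 were higher in both libraries with either gene. In Foxp3-positive cells with Tox, 5 of 11 were higher in the 16-week library, and 0 were higher and 1 lower in the 8-week library, with medians of 0.46 and -0.14. The 8 genes with the largest ratios in both libraries for Tox2 in conventional cells were Hist1h2ap, Cenpf, Tk1, Nusap1, Cdkn2c, Rrm2, 2810417H13Rik and Tcf19, most of them genes of DNA replication or mitosis. Hist1h2ap, a replication-dependent histone, stood at 375 CPM in Tox2-detected and 65.6 CPM in undetected cells, and at 838 and 128 CPM, but 1 cell held 53.4% of its UMIs in the detected cells of the 16-week library. For the other named genes the top cell held from 18.6% (Tk1) to 52.9% (Cenpf) there, with 42.9% for Nusap1 and for Cdkn2c. In the 8-week library the top cell held 12.3% to 19.4% over the named genes. In Tox-detected conventional cells Cxcr5 was the only follicular helper gene among the leading 8. In Cd8-gated cells the leading genes for Tox2 included the chemokines Ccl3 (165 in detected and 32.6 CPM in undetected cells, and 277 and 18.3 CPM) and Ccl4 (687 and 156 CPM, and 991 and 102 CPM). In the Tox2-detected cells 1 cell held 50% and 30.5% of the Ccl3 UMIs and 53.3% and 60.3% of the Ccl4 UMIs. The lectin-like NK receptor gene Klre1 led in both, at 115 and 22.6 CPM and 93.3 and 12.5 CPM for Tox2, and at 94.1 and 9.12 CPM and 74.9 and 3.66 CPM for Tox.

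The lists were recomputed without the dividing cluster, a setting chosen after seeing the data. With Tox2 in conventional cells, 11 of 13 follicular helper genes were then past 1.5-fold higher in both libraries, with medians of 1.29 and 0.79, and 8 and 6 of 11 exhaustion genes, with medians of 1.09 and 0.71. With Tox2 in Cd8-gated cells, 11 and 11 of 13 exhaustion genes were, with medians of 1.69 and 1.48. With the cluster included, 18.9% and 9.65% of all genes were higher with Tox2 in conventional cells, and 26% and 17.4% in Cd8-gated cells. Those shares were not counted without the cluster. The medians of all genes without it were 0.11 and 0.06 in conventional cells and 0.18 in Cd8-gated cells of the 16-week library. The proliferation medians in that setting, over 4 genes, were 0.60 and 0.14 for Tox2 and -0.11 and -0.37 for Tox in conventional cells, and 0.32 and 0.82 for Tox2 and 0.44 and 0.48 for Tox in Cd8-gated cells. The Tox2 follicular helper and exhaustion medians given here were close to or above those with the cluster included. The proliferation medians were lower without the cluster, and those of Tox2 in conventional cells were 1.70 and 1.90 with it, over 12 genes. The cluster was picked for its division genes, so lower proliferation medians without it were set in advance. The Tox exhaustion median in 16-week conventional cells was also lower, at 1.27 without the cluster and 1.72 with it.

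Cells that held a UMI of only 1 of the genes were set against each other to separate them. Conventional cells with Tox2 only numbered 35 and 48, those with Tox only 94 and 96, those with both 32 and 67, and those with neither 405 and 368. The median depths of the Tox2-only and Tox-only cells were close, at 4228 against 3460 UMIs in the 16-week library and 4018.5 against 3787.5 UMIs in the 8-week library. Follicular helper genes did not separate them as a list: 2 of 9 were past 1.5-fold higher and 0 lower in Tox2-only cells of the 16-week library, and 0 higher and 1 lower of 12 in the 8-week library, where 11% and 7.91% of all genes were higher, with medians of -0.05 and 0.04. Sh2d1a was higher in Tox2-only cells in both libraries, at 433 CPM against 229.7 CPM in Tox-only cells, 0.91 (0.47 to 1.36), and at 444 against 341 CPM, 0.38 (0.03 to 0.73). Il21 had ratios of -0.44 and 0.57 with intervals that included 0.

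Of the exhaustion list, 0 of 8 genes were past 1.5-fold higher and 4 lower in Tox2-only conventional cells of the 16-week library, and 1 higher and 3 lower of 10 in the 8-week library, where 9.58% and 8.04% of all genes were lower, with medians of -0.49 and -0.06. Lag3 was lower in Tox2-only cells, at 149 CPM against 307 CPM in Tox-only cells, -1.02 (-1.68 to -0.45), and at 207 against 299.7 CPM, -0.53 (-1.01 to -0.08). With the classes set by UMI gates alone the 16-week Lag3 ratio was -0.016. Without the dividing cluster the 8-week Lag3 ratio was -0.36 (-0.88 to 0.13). Nr4a1, an early gene of receptor signalling, was lower: Tox2-only cells had 92.7 CPM against 187 CPM, -0.98 (-1.84 to -0.26), and at 42.1 against 88.9 CPM, -1.03 (-2.18 to -0.10). Pdcd1 went the other way, with 258 CPM against 187 CPM in the 16-week library, 0.46, and 302 CPM against 207 CPM in the 8-week library, 0.55 (0.10 to 0.99). Tigit had ratios of -0.27 and 1.08. The exhaustion genes therefore did not move as a block between the cells with 1 of the genes.

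Stem-like and naive genes were lower in Tox2-only than in Tox-only conventional cells for 8 of 11 and for 6 of 13 genes, with medians of -1.05 and -0.46. Tox2-only cells had Ccr7 at 87.6 CPM, against 237 CPM in Tox-only cells, in the 16-week library and 107 CPM, against 179.8 CPM, in the 8-week library. Their Klf2 levels were 402 CPM, against 694 CPM, and 245 CPM, against 397 CPM. Tcf7 was higher in the 16-week library, at 366 against 219.7 CPM, 0.74 (0.26 to 1.20), but not in the 8-week library, at 245 against 252 CPM, -0.04. Id3 had ratios of 0.57 with an interval that included 0 and 1.51, at 195 against 68.2 CPM. In Cd8-gated cells the Tox2-only group was small, 10 and 13 cells against 42 and 55 with Tox only. There Lag3 had the opposite direction to conventional cells, at 448 against 180.4 CPM, 1.34 (0.42 to 2.14), and at 442 against 272 CPM, 0.72 (0.08 to 1.30). Id3 was higher too, 448 CPM against 177 CPM in the 16-week and 351 CPM against 132 CPM in the 8-week library, where 20.2% and 9.69% of all genes were past 1.5-fold higher.

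**Figure D5:**
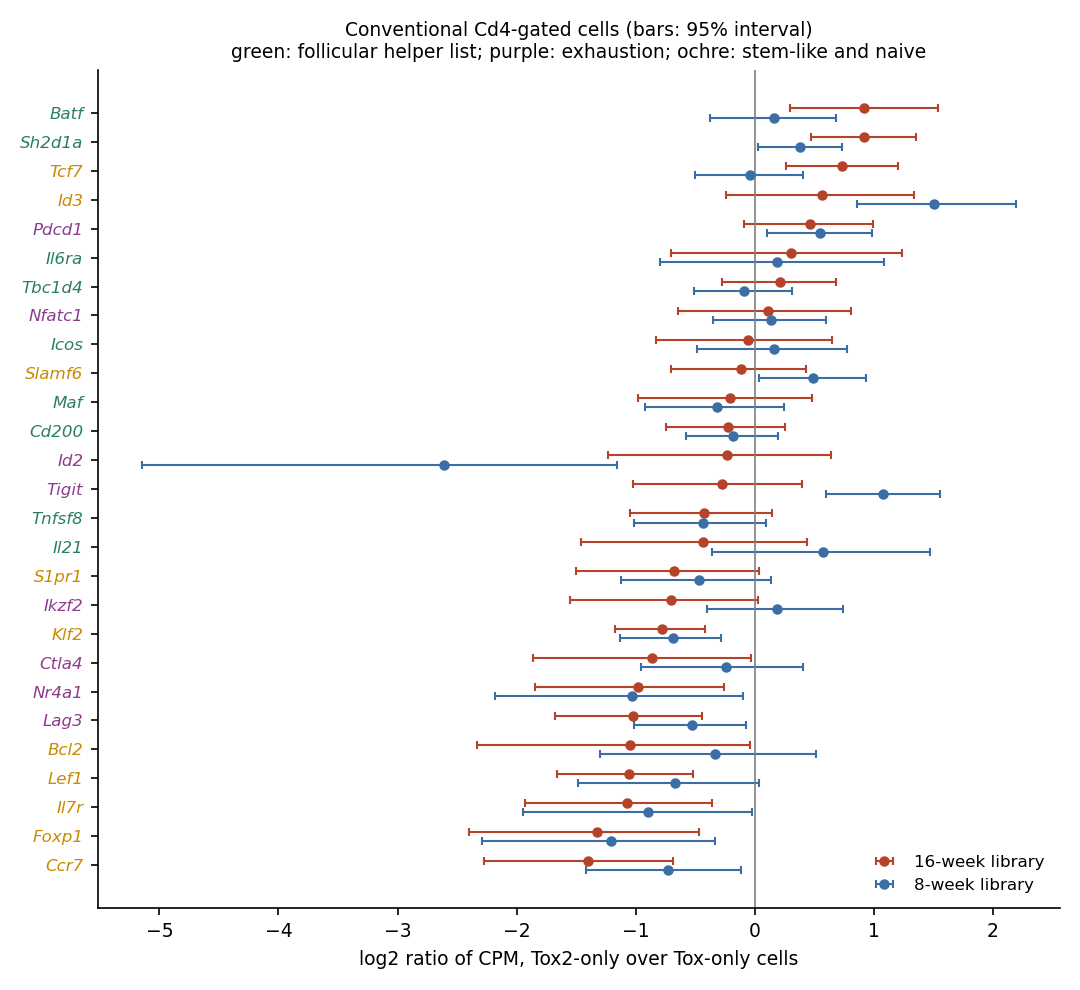
Log2 ratio of CPM in Tox2-only over Tox-only conventional Cd4-gated cells, for genes of the follicular helper, exhaustion, and stem-like and naive lists; points are the 16-week and the 8-week library and bars the 95% interval. Sh2d1a lies above 0 at 0.91 and 0.38, and Lag3 and Nr4a1 lie below it at -1.02 and -0.53 and at -0.98 and -1.03.

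Cells of expanded clones, those whose paired receptor was read in more than 1 cell of the library, held more of both genes than cells with a receptor seen once in the conventional and Cd8-gated classes. Of the cells with at least 1700 UMIs, expanded conventional cells numbered 41 in 24 clones in the 16-week library and 95 in 47 clones in the 8-week library, against 383 and 326 single cells. Tox2 stood at 109 CPM in expanded and 53.8 CPM in single cells, 1.03 (0.35 to 1.65), and at 116 and 61.1 CPM, 0.92 (0.47 to 1.37). Tox stood at 124 and 77.2 CPM, 0.70 (0.08 to 1.26), and at 155 and 91.9 CPM, 0.75 (0.37 to 1.13). Without cells that had more than 1 beta chain, the 16-week Tox ratio was 0.48 (-0.26 to 1.13). Pdcd1 differed by more, at 342 in expanded and 119 CPM in single cells and at 338 and 148 CPM. In Cd8-gated cells, where only 10 and 30 cells were expanded, Tox stood at 276 and 74.6 CPM and at 262 and 75.7 CPM, and Tox2 at 155 and 23.2 CPM and at 90.0 and 32.3 CPM. In Foxp3-positive cells, with 6 and 13 expanded, Tox stood at 130 and 102 CPM and at 93.8 and 91.5 CPM, and the intervals of the Tox and Tox2 ratios included 0 in both libraries. Cells of a clone are not independent of each other.

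Across 23 cluster-by-library points, which share their libraries, the genes whose level was most like that of Tox by Pearson's r of log CPM were Nrn1 (0.937), Lag3 (0.928), Rgs16 (0.923), Penk (0.915) and Ptms (0.912), of 5879 genes compared. Those most like Tox2 were 1700019D03Rik (0.947), Pdcd1 (0.926), Rap1a (0.924), Nrn1 (0.920) and Rgs16 (0.916). Lag3 thus headed the known inhibitory receptors beside Tox, and Pdcd1 beside Tox2, while Tox and Tox2 had an r of 0.897 with each other.

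RNA of other cells was present in all 3 classes. The 8 acinar genes summed to 54.4 and 52.2 CPM in Cd8-gated cells, to 101 and 83.1 CPM in Foxp3-positive cells and to 68.8 and 34.7 CPM in conventional cells of the 16-week and 8-week libraries. The B cell list summed to 51.4 and 46.4 CPM in Cd8-gated cells, to 90.5 and 78.5 CPM in Foxp3-positive cells and to 13.4 and 16.8 CPM in conventional cells, with Ms4a1 at 0 UMIs in all 3 classes of both libraries. The list of NKT and γδ T cell genes summed to 138 and 216 CPM in Cd8-gated cells and to 24.1 and 78.8 CPM in conventional cells, and its part in the levels of Tox and Tox2 was not tested.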

How the data were processed

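Raw UMI counts, as deposited by the authors in a matrix of genes by barcodes, were used for 1 RNA library per age, with contig tables of the receptor libraries; per the file headers the matrices were written by software version 3.0.1, and per the submitters' processing notes the genome was mm10 and Seurat was used. The aligner is not given in the sources used here. Counts were analysed with scanpy 1.11.5, numpy 2.4.6 and scipy 1.17.1 in Python 3.11.15. Cells with fewer than 500 genes or over 10% mitochondrial UMIs were removed (151 and 22 of 2107 barcodes at 16 weeks, 136 and 32 of 2043 at 8 weeks). Scrublet marked 3 cells (0.0788%), so doublets were in effect not removed; 234 of 1641 and 202 of 1581 cells with a beta chain had more than 1. Cells were clustered with 2000 variable genes, 30 components, 15 neighbours and Leiden resolution 1. Clusters were named from marker lists. CPM intervals are exact Poisson, shares Clopper-Pearson, differences of shares Newcombe, and log2 ratios (0.5 UMI added) exact conditional; no p was computed. Genes entered a ratio table with at least 30 UMIs. In simulated counts 96.0% of 8014 age intervals in conventional cells held the true value. These counts were drawn from the Poisson model that the intervals assume, so the check does not cover variation between cells. Named genes were the 8 with the largest smaller ratio of the 2 libraries, past 1.5-fold in both. The members and gene lists were chosen with earlier results of these data known. The alternatives tried were other depths of thinning, equal weight per cell, gates on UMIs alone, stricter filters and the lists without the dividing cluster.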

Additional observations from a re-analysis of the deposited data

How the results depend on the processing

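Of 848 values recomputed under alternatives, 809 stayed within the limits set around the main value, 38 moved outside them and 1 reversed. A reversal was counted only where the main interval excluded 0, so values within the limits could change sign. For Tox with Tcf7 in Cd8-gated cells at 16 weeks, the share difference was -4.62 points thinned to 1700 UMIs and 4.42 points unthinned. None of the 80 age ratios recomputed moved. No paired analysis was possible because each age has 1 library. With equal weight per cell, the Tox log2 ratio of Cd8-gated over conventional cells at 16 weeks was -0.31 and of Foxp3-positive over conventional cells at 8 weeks 0.41; in conventional cells the Tox ratios were 1.66 with Pdcd1 at 16 weeks, 1.31 with Il21 and 1.44 with Lag3 at 8 weeks, and the Tox2 ratios at 16 weeks 2.90 with Pdcd1, 1.89 with Il21 and 1.78 with Lag3. Without the dividing cluster, a setting chosen after seeing the data, the Foxp3-positive over conventional Tox ratio at 8 weeks was 0.30, the Tcf7 ratio of Tox in Pdcd1-positive Cd8-gated cells at 16 weeks -2.13 and the Pdcd1 ratio of Tox2 in conventional cells at 16 weeks 2.75. With gates on UMIs alone, Lag3 in Tox2-only over Tox-only conventional cells at 16 weeks was -0.016. The cause of these moves was not tested.

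Differences in the share of detected cells depended most on depth, which leaves most cells with 0 or 1 UMI of either gene. Thinned to 1000 UMIs, the differences in points for Tox were 9.89 with Pdcd1 (conventional, 16 weeks), -5.70 with Pdcd1 (Cd8-gated, 16 weeks, the reversed value), 4.05 and 4.15 with Tcf7 (conventional, 16 and 8 weeks) and 0.695 with Il21 (conventional, 8 weeks), and for Tox2 8.62 with Pdcd1 at 8 weeks and 7.50 with Tcf7 at 16 weeks (conventional). Thinned to 2500 UMIs, Tox with Tcf7 at 8 weeks was 0.855. Unthinned, Tox with Pdcd1 was 36.7 and 32.7 in conventional and 43.8 and 47.8 in Cd8-gated cells at 16 and 8 weeks, Tox with Tcf7 4.58 at 16 weeks, Tox2 with Pdcd1 at 8 weeks 37.0 in conventional and 36.4 in Cd8-gated cells, Tox2 with Tcf7 11.1 and 15.7, and Tox2 with Il21 31.5 and 41.6 in conventional cells. Expected over all draws of 1000 UMIs, a setting chosen after seeing the data, Tox with Pdcd1 in Cd8-gated cells at 16 weeks was 8.79, so the reversed value is that of 1 draw; Tox at 8 weeks was 3.24 with Tcf7 and 13.1 with Il21, and Tox2 9.11 with Pdcd1 and 2.02 with Tcf7. With cells thinned to 1700 UMIs before the split, the exhaustion medians in Cd8-gated cells at 8 weeks were 0.36 for Tox and 0.32 for Tox2. Unthinned, expanded over single conventional cells differed by 27.4 points for Tox at 16 weeks and 25.2 points for Tox2 at 8 weeks.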
